A study of Mus musculus with 150 samples.

Results

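The p53 pathway and damage kinase genes described here are Trp53, Mdm2, Mdm4, Cdkn1a, Bbc3, Atm, Atr and Chek2. They were chosen by name, and each was listed in exactly 1 bin of the deposited copy number table, so that 8 of its 5331 bins were followed. All 8 bins lie on autosomes, of which 4806 bins were kept. Low-coverage genome sequencing was done on 150 single cells from 3 lung tumours, T1, T7 and T9, of 1 mouse, with 50 cells per tumour, and 145 cells passed the filters (47 of T1, 48 of T7 and 50 of T9). The tumours were dissected one by one, 30 weeks after induction, from a mouse labelled KP on a C57BL/6 x Sv129 mixed background. The strains named in the labels carry Trp53flox/flox, in which Cre removes most of the coding sequence of the gene, and the reporters Rosa26LSL-tdTomato and Rosa26LSL-Luciferase. Induction was with AdSPC-Cre, an adenovirus that expresses Cre from a promoter of alveolar type 2 cells, or with AdCMV-FlpO, and the labels do not say which was used for this mouse. All 3 tumours are of the same mouse and so share its inherited genotype, and no tumour of another genotype and no normal cells are analysed here. The labelled cell type, AT2, cannot be checked against marker genes in DNA data.

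p53, the product of Trp53, is a transcription factor that accumulates after DNA damage and turns on genes of cell cycle arrest and cell death. The kinases ATM, which responds to double-strand breaks, and ATR, which responds to stalled replication, signal to p53 directly and through checkpoint kinases such as CHK2. MDM2 and MDM4 hold p53 in check, and Cdkn1a and Bbc3 are among its best known targets.

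Levels are log2 ratios relative to the median autosomal bin of the same cell, given for the gene's own bin. A tumour's level is the median of its cells, and every SD is that between cells. A gene was called lost when the mean of the segment that held its bin did not exceed -0.42, which stands for 1.5 copies in place of 2, and gained from 0.32 upward, which stands for 2.5 copies. Shares above 0 carry exact Clopper-Pearson 95% intervals, and a count of 0 carries the share that 3 cells would make as its limit. Both cover counting error alone. Every group is 1 tumour, so no test was made between tumours.

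By these segment calls, losses of the damage kinases Atm and Atr were present in nearly all cells of T1 and T9. Mdm2 was lost in a minority of T1 and T7 cells and Bbc3 in a minority of T1 cells. The other 4 genes, Trp53 among them, were called in under 20% of the cells of each tumour. Of the 8 genes, 4 were lost in at least 20% of the T1 cells, 1 in T7 and 2 in T9, and no gene was gained in that share of any tumour. The tally depends on the scaling and the threshold. Atm and Atr were called lost in fewer T1 cells from depth, and also by the bin alone. From depth it was 3 lost (Mdm2, Atm and Atr) and 2 gained (Cdkn1a and Chek2) in T1, with T7 and T9 as before. By the bin alone it was 5 lost (Trp53, Mdm2, Mdm4, Atm and Atr) and 1 gained (Chek2) in T1, 0 lost in T7 and 2 in T9. With a stricter loss threshold of -0.70 it was 0 lost in T1, 0 in T7 and 2 in T9. In T9 Atm and Atr were then each lost in exactly 20% of the cells, the criterion itself, and in T1 in a little under it. Over all autosomal bins the criterion at the main setting was met for loss by 20.1% in T1, 2.46% in T7 and 4.2% in T9, and for gain by 8.22%, 13.6% and 7.07%. Shares over all bins were not taken at the other settings, so the tallies at those settings have no share to be set against. Counted as pairs of gene and cell, 34.04% were lost in T1, 4.43% in T7 and 25.75% in T9, against 14.5%, 2.14% and 6.29% of all pairs of bin and cell. Gained pairs made up 2.13%, 0.521% and 1.5%, against 7.28%, 10.4% and 6.48% of all pairs. Atm and Atr share chromosome 9 and their calls are linked, so these counts are not those of 8 separate events.

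**Figure D1:**
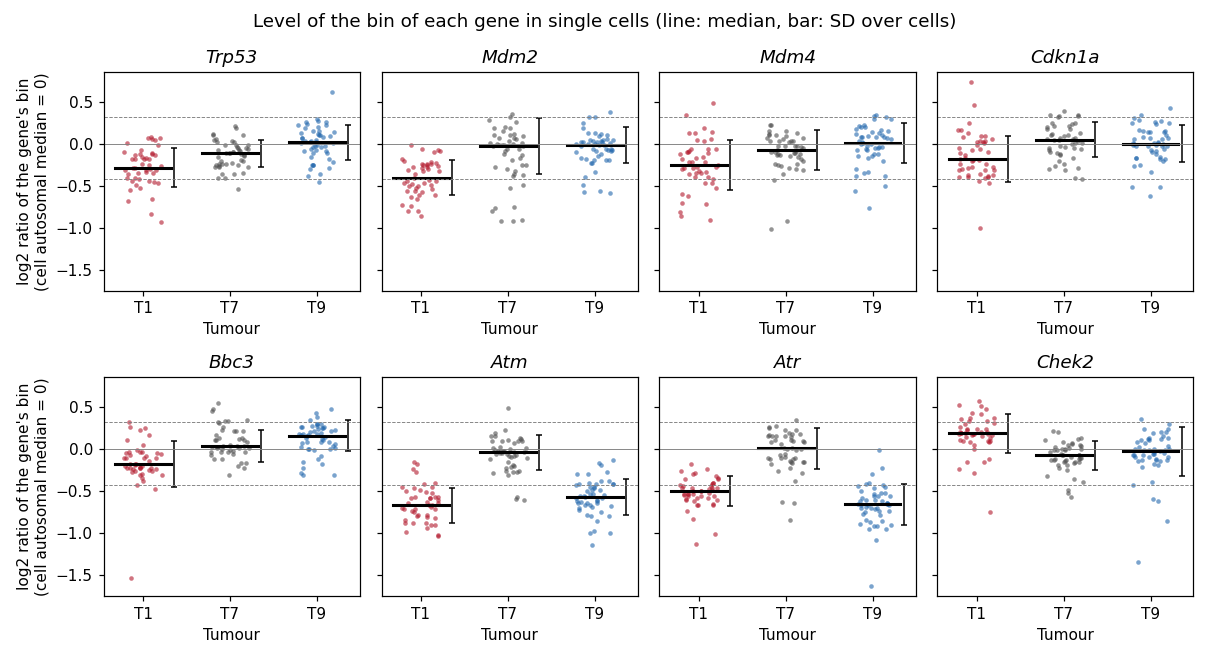
Log2 ratio of the bin of each of the 8 genes (vertical axis) in the single cells of T1, T7 and T9 (horizontal axis), 1 point per cell, with the median as a line, the SD over cells as a bar and the thresholds 0.32 and -0.42 dashed. The medians of Atm and Atr lie below -0.42 in T1 and T9 and near 0 in T7.

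The median kept cell of T1 held 97.7 Mb of sequenced bases (20.5 to 170.1), that of T7 69.3 Mb (24.6 to 140.3) and that of T9 56.7 Mb (43.3 to 82.1). The median noise of a cell, taken between neighbouring bins, was 0.19, 0.15 and 0.13. T1 thus had the highest median depth and also the highest median noise. The bins of the 8 genes are gene-rich, with 5 to 17 protein-coding genes against a median of 2 over all bins, and in T1 the deposited log2 ratio and the deposited depth parted with gene content. A ratio taken from the depth lay 0.32 above the deposited log2 ratio in T1 bins with at least 5 protein-coding genes and 0.34 below it (-0.34) in T1 bins with none. These shifts were -0.03 and 0.02 in T7 and -0.07 and 0.09 in T9. The typical offset of each bin over all cells was taken out of the ratio from depth, and most cells are of T7 and T9. Small shifts in T7 and T9 are thus partly built in, and the values show how T1 differs from them. The T1 levels of Trp53, Mdm4, Cdkn1a and Bbc3 were negative in the deposited ratio and positive in the ratio from depth, and both are given. What part gene content or depth has in the T1 levels was not tested.

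Atm encodes the kinase that is activated by double-strand breaks. It spans 53437122 to 53536828 of chromosome 9 (GRCm38) in a bin from 53223692 to 53721309. Its T1 bin ranged from -1.04 to -0.15 with a median of -0.67 (SD 0.21). In T9 it ranged from -1.14 to -0.13 with a median of -0.56 (SD 0.21). In T7 it ranged from -0.61 to 0.50 with a median of -0.04 (SD 0.21). Every T1 and T9 cell was below 0, while 31 of 48 T7 cells were, and the ranges of all tumours overlapped. Atm was called lost in 46 of the 47 cells of T1 (97.9%, 88.7 to 99.9) and 47 of the 50 cells of T9 (94%, 83.5 to 98.7). The same call was made in 2 of the 48 cells of T7 (4.17%, 0.509 to 14.3).

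Atr encodes the kinase of the replication stress response. It spans 95857597 to 95953217, in a bin 42.3 Mb distal to that of Atm. The T1 cells lay between -1.12 and -0.17, with a median of -0.50 (SD 0.18), and the T9 cells between -1.63 and -0.01, with a median of -0.65 (SD 0.24). The T7 cells lay between -0.84 and 0.35, with a median of 0.01 (SD 0.24). Atr was called lost in 45 T1 cells (95.7%, 85.5 to 99.5), 47 T9 cells (94%, 83.5 to 98.7) and 2 T7 cells (4.17%, 0.509 to 14.3). The T1 and T9 cells thus lie low at both kinases, and most T7 cells lie near 0 at both.

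The intergenic sequence just before each lost kinase gene is shown because these start sites lie in the bins that were low in T1 and T9. They are positions in the reference and were not read from these cells. Both are RefSeq sequences of GRCm38.p6, with CG dinucleotides in capitals. For Atm (minus strand, chr9:53536829-53536888) it is the whole gap of 60 bases to Npat, a histone transcription gene read from the other strand, whose start lies in the same bin. For Atr (plus strand, chr9:95857347-95857596) it is the 250 bases before the gene.
Atm: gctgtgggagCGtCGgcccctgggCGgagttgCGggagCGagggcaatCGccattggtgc
Atr: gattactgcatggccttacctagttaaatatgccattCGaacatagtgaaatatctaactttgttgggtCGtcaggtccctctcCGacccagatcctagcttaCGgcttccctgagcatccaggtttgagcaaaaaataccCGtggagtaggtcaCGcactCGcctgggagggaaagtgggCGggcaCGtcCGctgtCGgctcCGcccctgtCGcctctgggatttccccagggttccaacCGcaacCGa

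The loss covered both kinases together. Every cell with Atr lost also had Atm lost, which was the case in 45 T1, 47 T9 and 2 T7 cells, and in 1 T1 cell Atm was lost without Atr. Most of these losses were a single segment that held both genes, so they are not independent calls. Segment levels had medians of -0.64 for both genes in T1 and of -0.63 for Atm and -0.62 for Atr in T9, which is 0.64 to 0.65 of the typical autosomal level of the cell. One copy in place of 2 would give -1. A bin level of -1 or lower was seen in 2 T1 and 2 T9 cells for each gene. A stricter threshold of -0.70 left both genes called lost in 17.02% of the T1 and 18% of the T9 cells. From depth, both were lost in 42.6% of the T1 and 92% of the T9 cells, although the T1 bin levels were then -0.67 for Atm and -0.51 for Atr.

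The proximal edge of the Atm loss fell at a single position in T9 and at several in T1. In T9 the segment that held Atm began at 47252284 in all 47 cells with a loss, 5.97 Mb before the Atm bin. In 7 of these cells it ended inside the chromosome, between 70341663 and 114397830. The T9 segment that held Atr began at 47252284 in 42 of 47 cells and at 95545044 at the latest. In T1 its start ranged from 28342824 to 51730840 over 46 cells, most often at 28342824 (17 cells), with a median of 28840442. Chek1, the gene of the checkpoint kinase that ATR activates, lies between the T9 edge and the T1 median, in a bin 16.9 Mb before that of Atm. It was lost in 46 of 47 T1 cells at a segment level of -0.64 (SD 0.09) and gained in 46 of 50 T9 cells at 0.48 (SD 0.15). All 46 of these T9 cells also had Atm lost. The Chek1 bin itself had a T9 median of 0.86 (SD 0.20), higher than its segment. It belonged to a block of 4 bins (35309467 to 37299936) with a T9 mean level of 0.92 (SD 0.21, median over cells), which is narrower than the shortest segment allowed and was chosen after its values were seen.

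**Figure D2:**
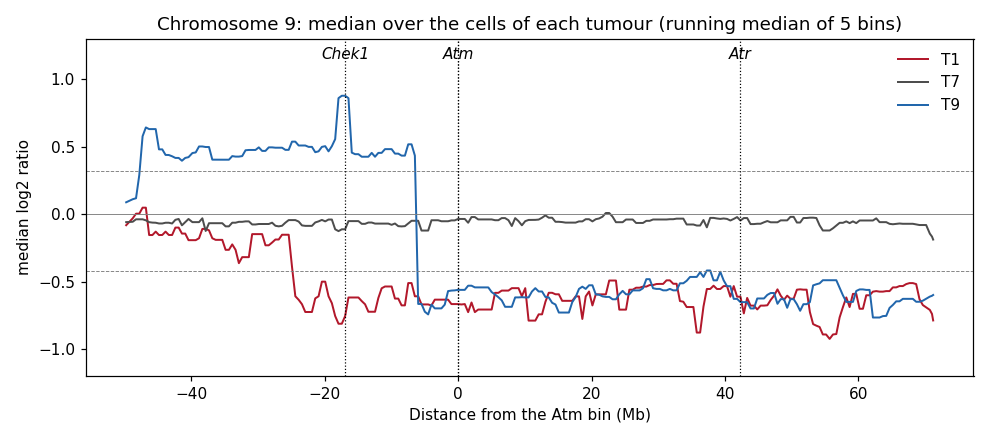
Median log2 ratio over the cells of T1, T7 and T9 along chromosome 9 (running median of 5 bins) against the distance in Mb from the Atm bin, with the bins of Chek1 (-16.9 Mb) and Atr (42.3 Mb) marked and the thresholds dashed. T9 steps from gain to loss between Chek1 and Atm, with a narrow peak at Chek1, T1 falls before Chek1, and T7 stays near 0.

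Chek2 encodes CHK2, a kinase that ATM activates (chromosome 5, 110839800 to 110874140, in a bin from 110539876 to 111036892). It was called in few cells. Its bin lay between -0.75 and 0.57 in T1, with a median of 0.19 (SD 0.23). In T7 the median was -0.07 (SD 0.17, from -0.57 to 0.22), and in T9 -0.03 (SD 0.29, from -1.34 to 0.36). T1 was the tumour with the highest level, and the ranges overlapped. It was gained in 5 of 47 T1 cells (10.6%, 3.55 to 23.1), and the T1 median of its segment, 0.17, was close to that of chromosome 5 as a whole, 0.18. The T1 level was not flat around Chek2. The median was -0.17 in the bin just before it, 0.39 in the bin just after it and 0.48 in the next one. In T9 it was lost in 4 of 50 cells (8%, 2.22 to 19.2) and gained in 1 (2%, 0.0506 to 10.6). The lowest T9 cell had a segment level of -1.04. In T7 it was lost in 1 of 48 cells (2.08%, 0.0527 to 11.1). From depth the T1 level was 0.54, and gain was called in 68.1% of the T1 cells.

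Trp53 itself lay near the level of its chromosome. The gene spans 69580348 to 69591873 of chromosome 11, which is 2.31% of its bin (69103127 to 69601989), a bin shared with 16 other protein-coding genes. The bin level ranged from -0.92 to 0.08 in T1 with a median of -0.28 (SD 0.23), from -0.53 to 0.21 in T7 with a median of -0.11 (SD 0.16), and from -0.45 to 0.63 in T9 with a median of 0.02 (SD 0.21). The bin was below 0 in 41 T1, 38 T7 and 22 T9 cells, and the ranges overlapped. Chromosome 11 as a whole had a median of -0.19 in T1 and -0.02 in both T7 and T9. In T9 it was not even. The T9 median fell from -0.03 in the bin 29.4 Mb beyond that of Trp53 to -0.70 in the bin at 29.9 Mb. It was -0.65 in the bin at 52.4 Mb. From depth the T1 level of the Trp53 bin turned positive, at 0.14, while T7 was at -0.08 and T9 at -0.09.

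Called changes at Trp53 were few. There were 5 T1 cells with loss (10.6%, 3.55 to 23.1) and 1 T7 cell (2.08%, 0.0527 to 11.1). T9 had 0 of 50, a count that allows up to 6%. Of the 5 T1 segments, 3 spanned chromosome 11 and the other 2 began at 68604265, a single bin before that of Trp53. Gain was called in 1 of 50 T9 cells (2%, 0.0506 to 10.6), with a segment level of 0.78. Judged by the bin alone, 11 of the 47 T1 cells (23.4%) were lost.

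A deletion of the gene alone could not be resolved. Absence of the whole gene from every copy would lower the bin by 0.03 (-0.03). The bin minus the median of its 5 neighbours on each side was -0.05 in T1 (SD 0.15), -0.02 in T7 (SD 0.18) and 0.03 in T9 (SD 0.15), so the SD between cells was larger than the shift sought. Over all autosomal bins, the middle 90% of the T1 medians of this difference ran from -0.24 to 0.23, and in T7 and T9 from -0.09 to 0.08. All 3 differences lay inside these ranges. From depth they were 0.04, -0.002 and -0.03. The T1 level was uneven beyond the gene, with -0.49 in the next bin and -0.20 in the one after it.

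Mdm2, the gene of the ubiquitin ligase that marks p53 for degradation, was lost in part of the cells of T1 and T7. It spans 117688875 to 117710758 of chromosome 10 (bin 117614874 to 118114108). Its bin ranged from -0.85 to -0.02 in T1 with a median of -0.40 (SD 0.21), from -0.92 to 0.35 in T7 with a median of -0.02 (SD 0.34), and from -0.58 to 0.39 in T9 with a median of -0.01 (SD 0.21). All 47 T1 cells were below 0, and T7 had the widest spread. Mdm2 was called lost in 13 T1 cells (27.7%, 15.6 to 42.6) and 10 T7 cells (20.8%, 10.5 to 34.99). The T9 count was 0 of 50, compatible with up to 6%. Gain was called in 0 cells of every tumour, for which the limits are 6.38%, 6.25% and 6% in T1, T7 and T9.

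The Mdm2 losses were large. In T1, 12 of the 13 lost segments were the whole of chromosome 10. In T7, 6 of 10 were, and the other 4 began between 24006844 and 71685220 and ran to the end. Over all 47 T1 cells the segments had a median of -0.19, higher than that of the bin, and the 13 lost ones had a median of -0.56. Judged by the bin alone, 48.9% of the T1 cells were lost. From depth the T1 bin level was -0.11, and the segment was lost in 31.9% of the T1 cells. A stricter filter on cells gave a T7 share of 19.1%, just under the criterion of 20%.

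Mdm4, whose product binds p53 and blocks its activity, was called in few cells and in both directions (chromosome 1, 132986105 to 133030587, in a bin from 132908503 to 133408096). Its bin median was -0.24 for T1 (SD 0.30, from -0.90 to 0.48), -0.07 for T7 (SD 0.24, from -1.01 to 0.23) and 0.02 for T9 (SD 0.24, from -0.76 to 0.35). The ranges overlapped widely. In T1 it was lost in 3 cells and gained in 3 (6.38% each, 1.34 to 17.5). T7 had 1 loss (2.08%, 0.0527 to 11.1) and T9 had 4 (8%, 2.22 to 19.2). All 3 T1 losses spanned chromosome 1, and none of the 3 gains did. The T1 level from depth was 0.17.

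The inhibitor genes were then set side by side in the same cells. In T1 the 3 cells with Mdm4 gained were among the 13 with Mdm2 lost, and no cell of any tumour had both lost. Mdm4 was lost in only 3 T1, 1 T7 and 4 T9 cells, so few joint losses were possible. Over the 47 T1 cells the segment levels of Mdm2 and Mdm4 had a Pearson correlation of -0.59, or -0.54 from depth. It was -0.17 over 48 T7 cells and -0.25 over 50 T9 cells. The levels of the bins alone had correlations of -0.13, 0.19 and -0.12 in T1, T7 and T9. Cells share a tumour and each cell is centred on its own median, so these correlations are descriptions.

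**Figure D3:**
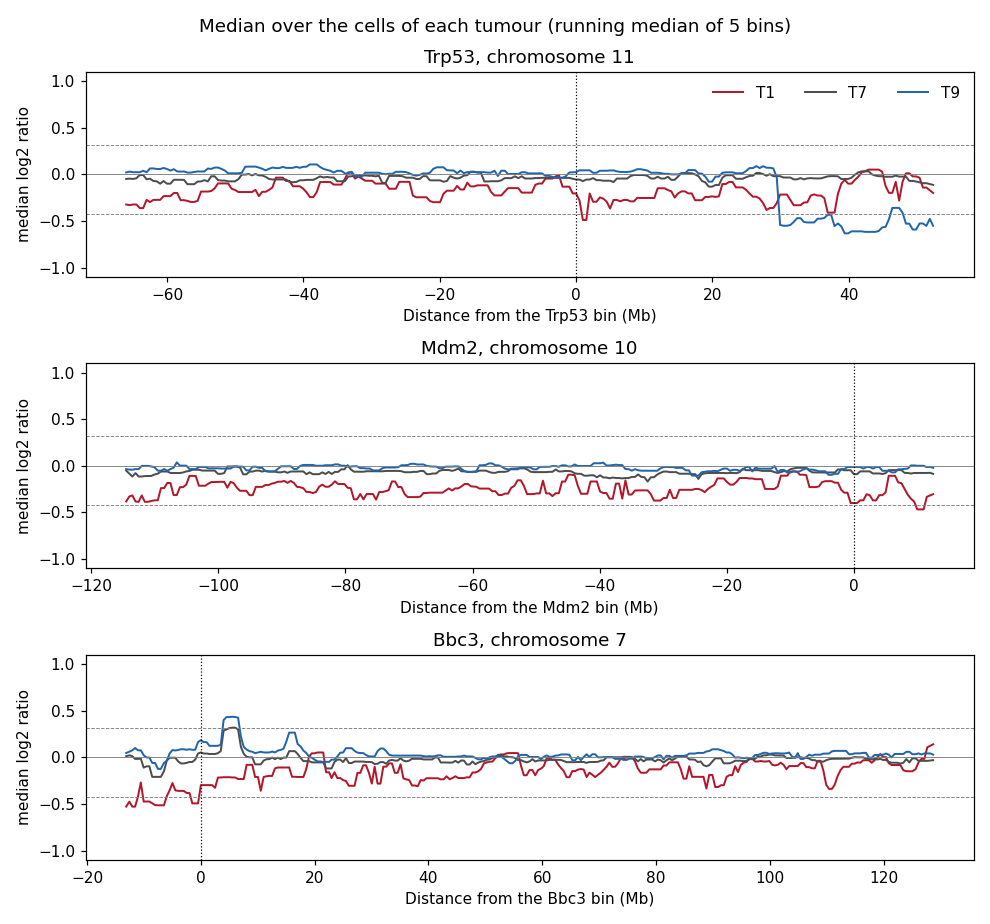
Median log2 ratio over the cells of T1, T7 and T9 (running median of 5 bins) along chromosomes 11, 10 and 7 against the distance in Mb from the bins of Trp53, Mdm2 and Bbc3, with the thresholds 0.32 and -0.42 dashed. T1 lies below 0 over most of all 3 chromosomes and is uneven just beyond Trp53 and Mdm2, and T7 and T9 show a raised block about 4 Mb beyond Bbc3. On chromosome 11, T9 falls 29.9 Mb beyond Trp53.

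Bbc3 encodes PUMA, a protein that triggers cell death at mitochondria. It spans 16308398 to 16318334 of chromosome 7 (bin 16127588 to 16626897). Its bin lay between -1.54 and 0.33 in T1, with a median of -0.18 (SD 0.27). The T7 median was 0.04 (SD 0.19, from -0.30 to 0.55) and the T9 median 0.16 (SD 0.18, from -0.31 to 0.48). T1 was lowest and T9 highest, with overlapping ranges. A loss was called in 16 T1 cells (34.04%, 20.9 to 49.3) and in 0 cells of T7 and T9, with limits of 6.25% and 6%. Gains were called in 2 T7 cells (4.17%, 0.509 to 14.3) and 4 T9 cells (8%, 2.22 to 19.2). All of these gained segments took in a block of 6 bins that starts 3.99 Mb beyond the Bbc3 bin (20122070 to 23166500) and was chosen after its values were seen. That block had a median level of 0.33 in T7 (SD 0.25) and 0.43 in T9 (SD 0.20), above that of the Bbc3 bin.

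The T1 call came from the surrounding region. All 16 lost segments began at the start of the chromosome and ended inside it, at a median of 20871034 (range 18124828 to 49706563). The segments lay near the threshold, with a median over T1 cells of -0.32 and 12 of 47 cells within 0.05 of -0.42. The Bbc3 bin lay above its segment by 0.17 (SD 0.20), and it was itself at or under -0.42 in 3 T1 cells, 2 of them among the 16. The bin just before it had a T1 median of -0.49 and the bin just after it -0.21. From depth the T1 bin level was 0.21, and loss was called in 8.51% of the T1 cells.

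Cdkn1a encodes the cell cycle inhibitor p21 (chromosome 17, 29090979 to 29100722, in a bin from 28697698 to 29199133). It was the least often called of the 8 genes. Its bin median was -0.18 for T1 (SD 0.28, from -0.996 to 0.74), 0.05 for T7 (SD 0.21, from -0.42 to 0.40) and 0.01 for T9 (SD 0.22, from -0.61 to 0.43). T1 had the lowest median in the deposited ratio, and the ranges overlapped. A loss was called in 1 T9 cell (2%, 0.0506 to 10.6), and 0 cells of T1 and T7 were called in either direction, with limits of 6.38% and 6.25%. The T1 segments had a median of 0.10, and the bin minus its segment had a median of -0.19. From depth the T1 bin level was 0.22, and gain was called in 46.8% of the T1 cells.

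The order of the bin levels showed which genes stood apart within a tumour. In T1 it ran from Atm through Atr, Mdm2, Trp53, Mdm4, Bbc3 and Cdkn1a to Chek2. Neighbours in this order differed by less than the larger SD over cells, apart from the last step, from Cdkn1a to Chek2, of 0.37. In T9, Atr and Atm lay lowest, and the step of 0.54 from Atm to Chek2 was the one larger than the SD. In T7 no step between neighbours exceeded 0.04.

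The changes were then combined within single cells. The mean number of the 8 genes lost was 2.72 per T1 cell (SD 0.83, at most 4), 2.06 per T9 cell (SD 0.77, at most 5) and 0.35 per T7 cell (SD 0.60, at most 2). The most common state in T9 was loss of Atm and Atr with no other gene called, in 38 of 50 cells (76%, 61.8 to 86.9). In T7, 32 of 48 cells had none of the 8 genes called (66.7%, 51.6 to 79.6), and in 10 Mdm2 alone was lost. No T7 cell had Mdm2 and Atm both lost, but Atm was lost in only 2 T7 cells.

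T1 held more states at the main setting. Loss of Atm and Atr alone was found in 16 of 47 T1 cells (34.04%, 20.9 to 49.3), the same with Bbc3 in 10 (21.3%, 10.7 to 35.7) and with Mdm2 in 6 (12.8%, 4.83 to 25.7). All 13 cells with Mdm2 lost and all 16 with Bbc3 lost also had Atm and Atr lost, as did 45 of all 47 T1 cells. Both Mdm2 and Bbc3 were lost in 2 cells. Of the 5 T1 cells with Chek2 gained, 4 had Mdm2 lost. Over all 47 T1 cells the levels of these 2 genes had Pearson correlations of only -0.13 for segments and -0.06 for bins. There were 15 distinct states in T1, 10 of them in 1 cell each, against 6 in T7 and 11 in T9. States were not recounted at other settings. From depth the T1 shares of Bbc3 loss, Chek2 gain and Cdkn1a gain all differed. T1 also had the highest median noise, and its part in the number of states was not tested. Under the stricter thresholds the mean number lost was 0.43 for T1 and 0.48 for T9.

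**Figure D4:**
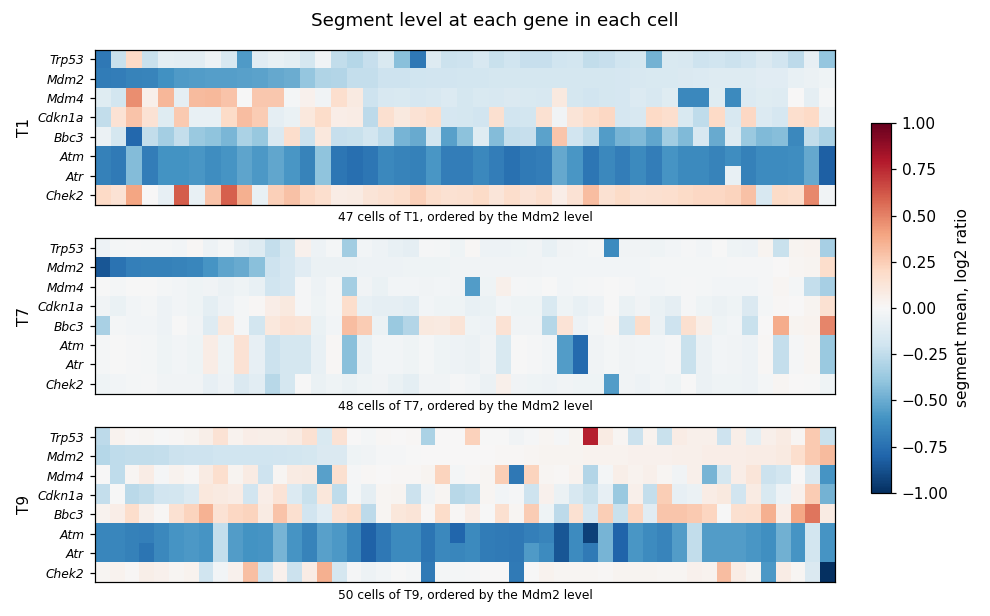
Segment mean as a log2 ratio (colour, from -1 in blue to 1 in red) at each of the 8 genes (rows) in each cell (columns) of T1, T7 and T9, with cells ordered by the level at Mdm2. Atm and Atr are blue across T1 and T9, and the 13 T1 and 10 T7 cells with Mdm2 lost form the left edge of their panels.

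**Figure D5:**
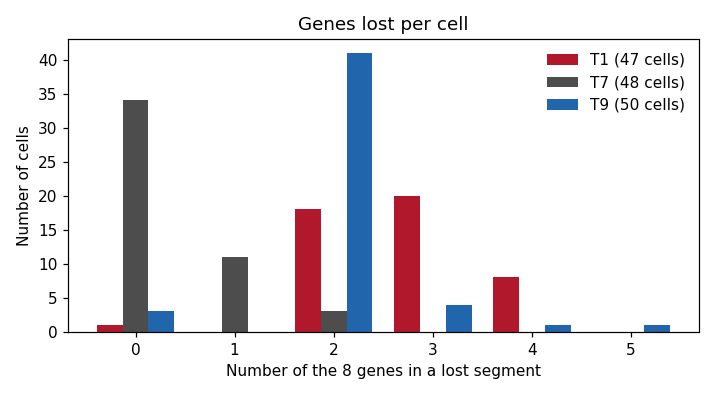
Number of cells (vertical axis) of T1, T7 and T9 by how many of the 8 genes lay in a lost segment (horizontal axis). The tallest bars are 2 genes in T9 (41 cells), 0 genes in T7 (34 cells) and 3 genes in T1 (20 cells).

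A wider list of 63 genes of the pathway gave the setting, of which 62 were matched by symbol or synonym. In at least 20% of the cells, 20 were lost and 5 gained in T1, 1 lost and 8 gained in T7, and 4 lost and 7 gained in T9, and 32 met the criterion in no tumour. Of the matched genes this is 32.3% lost and 8.06% gained in T1, 1.61% and 12.9% in T7, and 6.45% and 11.3% in T9. All autosomal bins had 20.1% and 8.22%, 2.46% and 13.6%, and 4.2% and 7.07%, so that the T1 gains and both T7 shares are near those of all bins. The median segment level of the list was -0.17 for T1, -0.03 for T7 and 0.01 for T9, while all autosomal bins had 0.11, -0.03 and 0.02. All listed genes lie in bins that hold genes. In T1 bins with at least 5 protein-coding genes, a ratio from depth lay 0.32 above the deposited one. The list was not repeated from depth, and the part of gene content in its T1 levels and shares was not tested. By group, T1 had 8 of 24 damage sensors, kinases and adaptors lost and 0 gained, 6 of 14 arrest, repair and metabolism targets lost and 3 gained, 5 of 13 death targets lost and 1 gained, and 1 of 10 regulators lost and 1 gained. In T9 the damage group had 4 lost and 3 gained, the death targets 0 and 2, the arrest group 0 and 2, and the regulators 0 and 0. In T7 the only listed gene lost was Apaf1, which forms the apoptosome, and the gains included 4 in the arrest group, 2 regulators and 1 death target. Of the p53 family, Trp63 was matched and met the criterion in no tumour. Listed genes on 1 chromosome share segments and are not separate events.

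Several partners of ATR on chromosome 9 were lost in as many cells as Atr. Atrip, which carries ATR to single-stranded DNA, Topbp1, which activates it, and Cdc25a, a phosphatase that the checkpoint removes, were each lost in 45 of 47 T1 and 47 of 50 T9 cells. Ei24, a p53 target, is listed in the same bin as Chek1 and so has its counts, with loss in 46 T1 cells and gain in 46 T9 cells. H2afx, the histone that ATM marks at breaks, lies in another bin and had the same counts. Mre11a, a subunit of the complex that recruits ATM, was gained in 45 of 50 T9 cells at 0.46, and Brca1, a repair gene on chromosome 11, was lost in 42 at -0.57.

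Other listed genes were called on chromosomes that carry none of the 8 genes. On chromosome 4, Cdkn2a, whose ARF product restrains MDM2, was lost in 45 of 47 T1 cells. So were the p53 targets Trp53inp1, Sesn2 and Sfn, and the damage genes Nbn and Clspn, while Plk3 was lost in 44 and Casp9 in 43. On chromosome 6, the p53 targets Xpc, Tigar and Bid were each gained in 37 T1 and 36 T7 cells, and in 42, 41 and 41 T9 cells. The gain did not take in every listed gene of chromosome 6. Hipk2, a kinase of p53, and Gadd45a, a p53 target, both named after their values were seen, were gained in 16 and 36 T1 cells, in 36 T7 cells each and in 2 T9 cells each. On chromosome 2, Trp53bp1, whose product binds p53 and marks breaks, was gained in 38 of 48 T7 cells.

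The listed genes on other chromosomes with the most similar segment levels over all 145 cells, chosen by correlation, included Brca1 and Trp53bp1 for Atm and for Atr. Within T1, T7 and T9, Brca1 had correlations with Atm of 0.45, 0.34 and 0.58, and with Atr of 0.31, 0.34 and 0.70. Those of Trp53bp1 with Atm were -0.49, 0.42 and 0.19, and changed sign. For Bbc3 the same choice gave Plk3, with 0.43, 0.35 and 0.15, and then Trp53inp1 and Nbn, with 0.47, -0.30 and -0.12, which change sign. For Mdm2 it gave Chek1 and Ei24, which share a bin, and H2afx. All had 0.37 over all 145 cells, but the opposite sign in every tumour (-0.38, -0.19 and -0.21 in T1, T7 and T9). These values describe cells that share tumours and centring.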

How the data were processed

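Genomic DNA of single cells was sequenced. The submitters' processing notes name BWA 0.7.17 and GRCm38. The authors deposited, per the file headers, a depth signal (coverage per bin), a log2 ratio and a weight score, for bins of about 500 kb. The sources used here do not give the tool or reference behind the log2 ratio. The weight score entered no value.

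Cells needed depth in 80% of the autosomal bins and noise (scaled median difference of neighbouring bins) up to 0.267, the median plus 3 scaled median absolute deviations, which left out 3 T1 and 2 T7 cells. Each cell was centred on its autosomal median, so a doubled genome cannot be seen. Segments came from optimal partitioning by least squares. Each added segment cost 3 times the squared noise times the natural logarithm of the bin count, and a segment needed 5 bins and 10 Mb. The ratio from depth is the log2 of depth over the median of the cell, less the typical offset of that bin from the deposited ratio over all cells. Calling was tested on simulated data. Doublets were not treated. Cells are not replicates of a tumour, and intervals and limits (3 cells for a count of 0) cover counting error.

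The genes, lists and rules were chosen with earlier results of these data known. Named are all 8 genes, up to 20 genes of the wider list called in 20% of the cells of a tumour (by highest share, with ties), Chek1 and Ei24, and for each of the 8 that met this criterion the 3 listed genes on other chromosomes with the highest correlation. Apaf1, Trp63, Hipk2 and Gadd45a were named after their values were seen. Trp73 was not analysed here. Gene positions are those of RefSeq on GRCm38.p6. An engineered locus and a gene of the wider list are not reported here. Software was Python 3.11.15 with numba 0.67.0, scipy 1.17.1, numpy 2.4.6, pandas 2.3.3 and matplotlib 3.10.9.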

Additional observations from a re-analysis of the deposited data

How the results depend on the processing

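The calls were repeated with other thresholds, called values, centring, cell filters, segmentation penalty and source of the ratio. Direction was compared only for bin levels beyond a threshold, those of Atm and Atr in T1 and T9. These kept their sign wherever levels were repeated. Shares of cells were not compared for direction. From depth, Bbc3 no longer met the criterion of 20% for loss in T1, and Cdkn1a and Chek2 met it for gain. The T1 difference between the Trp53 bin and its neighbours was -0.05, and 0.04 from depth, both smaller than its SD of 0.15. Stricter thresholds (-0.70 and 0.45) lowered the share of T1 cells lost to 2.13% for Mdm2, 2.13% for Bbc3, and 17.02% each for Atm, Atr and both, that of T7 cells for Mdm2 to 4.17%, and that of T9 cells to 20% each for Atm and Atr and 18% for both. The mean number lost per cell was then 0.426 in T1 and 0.48 in T9. Segment levels of the kinases lie between the main and the stricter threshold in most cells. Looser thresholds (-0.30 and 0.25) gave T1 losses of 53.2% for Bbc3 and 100% for Atm, and centring on the mode gave 100% for Atm. The bin alone gave T1 losses of 48.9% for Mdm2, 6.38% for Bbc3, 87.2% for Atm, 74.5% for Atr and 68.1% for both, a T7 loss of 16.7% for Mdm2, and T9 losses of 74% for Atm and 68% for both. The ratio from depth gave T1 losses of 8.51% for Bbc3, 44.7% for Atm, 65.96% for Atr and 42.6% for both, and a T1 mean of 1.62 lost genes per cell. The cause was not tested. Among the repeats of the main results, which include those listed here, 26 moved by more than their error and 100 did not. Among the repeats of the other values of single genes, 26 moved and 463 did not. For a level, the error was the SD between cells, which is a wide measure for a median over cells. A level counted as not moved can thus have shifted by up to that SD. No paired analysis was possible because the cells of the 3 tumours carry no shared numbers or sources that would match them. Bins of about 500 kb cannot show a change within a gene, and segments under 10 Mb were not called.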
